A study of Mus musculus with 9 samples.

Results

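The 33 genes described here encode the intracellular relay of insulin and of insulin-like growth factor 1 (IGF-1): docking proteins and adaptors, phosphoinositide 3-kinase (PI3K), the kinases AKT, GSK3 and SGK1, the mTOR complexes with their regulators and targets, and the FOXO transcription factors. They were chosen by symbol as rows of the gene count table, whose Ensembl identifiers were matched to symbols. All 33 of 33 were among the 37816 genes of the table, and all 33 were among the 19353 genes that passed the filter on low counts.

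RNA was measured by sequencing in the cerebellum of 9 mice, 3 in each of 3 groups, at 18 months of age. Every mouse was of the C57BL/6 strain background and carried the human ATXN3 gene on a yeast artificial chromosome, the source of spinocerebellar ataxia type 3 (SCA3) when its CAG tract is expanded. The 15Q group, the control, carried 15 repeats. The 84Q group carried 84 repeats. The 84Q+IGF-1 group carried 84 repeats and received 50 mg/kg IGF-1 by intraperitoneal injection each week from 9 months of age, while the labels call the other mice untreated and the treatment protocol names PBS for mice without IGF-1. No group without a transgene was included, and no 15Q mouse received IGF-1. The study was given the 15Q mice by another laboratory and obtained the 84Q mice from The Jackson Laboratory. Repeat length therefore cannot be told apart from mouse line or source in any comparison with 15Q. The comparisons ask whether the expanded repeat, and then IGF-1 on top of it, went with different RNA levels of the proteins that carry the IGF-1 signal.

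When IGF-1 or insulin binds its receptor, the docking proteins IRS1 and IRS2 are phosphorylated and recruit PI3K, which makes the membrane lipid PIP3. PIP3 brings AKT to the membrane, where PDPK1 and mTOR complex 2 activate it. AKT then inhibits GSK3, the TSC1-TSC2 brake on RHEB and mTOR complex 1, and the FOXO factors, which it keeps out of the nucleus. Most of these steps are changes in phosphorylation of protein, which RNA counts do not measure. In bulk tissue, fewer cells of a type and less RNA per cell cannot be told apart.

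Library totals ran from 17482654 to 58269196 counts. The cerebellar markers were present at like levels in all groups, with summed CPM (counts at a TMM-scaled library total of 1000000) of 6707 to 7454 for 8 Purkinje cell markers and of 5496 to 6345 for 8 granule cell markers. The libraries differed in other tissue. The 12 choroid plexus markers summed to 1180 CPM in 15Q replicate 1, 1149 in 15Q replicate 3 and 2099 in 84Q replicate 2, against 121 to 214 in the other 6 libraries. The 12 markers of epidermis, gut, muscle and liver summed to 47.8 to 77.2 CPM in 15Q, 8.42 to 10.1 in 84Q and 7.99 to 9.60 in 84Q+IGF-1, and Cyp3a11 was listed at 0 in all 6 libraries with the expanded repeat. The labels give no sex, and Xist, which coats the silent X chromosome of females, had 719 to 949.5 CPM in 4 libraries (15Q replicates 2 and 3, the first 84Q replicate, the second of 84Q+IGF-1) and 0.285 to 1.15 CPM in the other 5. Counts without the 3 libraries of highest choroid plexus sum, and with that sum or Xist as a covariate, are given beside the genes that passed.

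The 33 genes spanned a wide range of levels. On the TPM scale, which corrects for transcript length, Grb2, the adaptor that links receptors to RAS, was the most abundant with a mean over the 9 libraries of 253 ± 9.13 (SD). Foxo3, a FOXO factor linked to longevity, followed with 167 ± 16.8 TPM. Gsk3a, Akt1 and Pik3r2 came next, with means of 142, 140 and 135 TPM, and their ranges over the libraries overlapped. The glycogen synthase kinase paralog Gsk3b stood at 104 TPM and Mtor, the kinase of both mTOR complexes, at 66.9 TPM. At the low end, Deptor, an inhibitor bound to mTOR, had a mean of 10.7 TPM, the translation repressor Eif4ebp1 3.10 TPM and Foxo6 1.87 TPM. The 2 docking proteins differed, with 82.1 TPM for Irs2 and 16.0 TPM for Irs1. Of the catalytic PI3K subunits, Pik3ca had 47.6 TPM, Pik3cb 18.9 TPM and Pik3cd, the form known from white blood cells, 12.9 TPM.

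**Figure D1:**
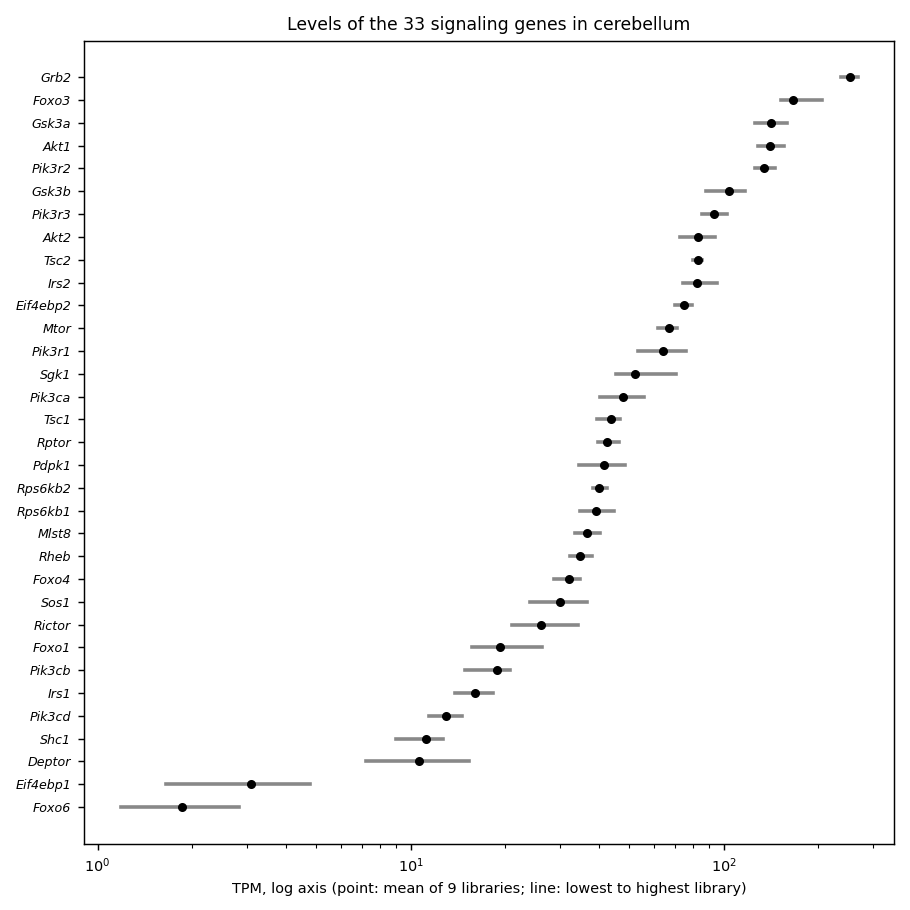
TPM of the 33 genes on a log axis, with a point for the mean of all 9 libraries and a line from the lowest to the highest library. Levels run from 1.87 TPM for Foxo6 to 253 TPM for Grb2, with those of Gsk3a, Akt1 and Pik3r2 overlapping between 126 and 159 TPM.

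For part of these genes, other annotated genes share their exons, and the strand setting of the counting is not stated. In GENCODE vM21, 24.3% of the exon bases of Pik3r3 lie on the same strand as Gm49337, and 28.3% of Gsk3a, 30.9% of Irs1, 22.5% of Mlst8 and 23.7% of Rps6kb2 lie opposite an exon of another gene. Of the 31-base words of Akt2 transcripts, 13.3% also occur in the pseudogene Akt2-ps. Of those of Grb2, 12.1% also occur in Gm12791, and of those of Shc1, 10.1% occur in other genes. The levels of these genes are less certain for this reason. For each of the remaining genes of the 33 such shares were at most 9.72%.

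Comparing 84Q with 15Q, none of the 33 genes passed an adjusted p under 0.1 in edgeR's quasi-likelihood test, while 4.80% of all genes tested did. At an unadjusted p under 0.05 the count was 14 of 33, against 19.4% of all genes, with 7 higher (9.04% of all genes) and 7 lower (10.4%). The smallest adjusted p was 0.106, shared by Gsk3b and Pik3ca. DESeq2 passed 3 of the 33, against 6.30% of all genes it gave an adjusted p, namely Akt1 (adjusted p = 0.0854), Gsk3b (adjusted p = 0.0423) and Pik3ca (adjusted p = 0.0701). The median log2 fold change of the 33 genes was 0.001, beside -0.002 for all genes tested, and the median size without sign was 0.145 beside 0.139. The CPM of the 3 84Q and 3 15Q libraries did not overlap for 13 of the 33, against 25.4% of all genes tested.

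Comparing 84Q+IGF-1 with 15Q, 1 of the 33 genes passed, against 3.67% of all genes tested. This gene was Pik3r3, a regulatory subunit of PI3K, with a log2 fold change of 0.20 ± 0.054 (SE, adjusted p = 0.087 by edgeR). It no longer passed with Xist or the choroid plexus sum as a covariate, without the 3 libraries of highest choroid plexus sum, with the replicate number as a block, or without any 1 of the 15Q or 84Q+IGF-1 libraries. At an unadjusted p under 0.05 the count was 10 of 33, against 17.7% of all genes. The next smallest p was that of Shc1, an adaptor from receptors to RAS, whose 3 84Q+IGF-1 libraries at 13.0, 14.3 and 15.3 CPM lay below the 3 of 15Q at 17.6, 17.8 and 16.8 CPM. Its log2 fold change was -0.29 ± 0.084 (SE, adjusted p = 0.117). The 84Q libraries of Shc1, at 16.1, 16.4 and 15.8 CPM, stood between the other 2 groups and overlapped with neither.

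Comparing 84Q+IGF-1 with 84Q, none of the 33 genes passed and the background was 0% of all genes tested. None of the 33 reached an unadjusted p under 0.05 either, against 4.68% of all genes. DESeq2 passed 7 genes of the whole table and none of the 33. The largest difference between the IGF-1-treated and the untreated 84Q mice was that of Foxo6, a log2 fold change of -0.38 with a 95% interval of -0.94 to 0.18. For 31 of the 33 genes the 95% interval lay within a 1.5-fold change in both directions, and the exceptions were the low genes Eif4ebp1 and Foxo6. For Akt1 the interval ran from -0.16 to 0.12 and for Mtor from -0.10 to 0.17 on the log2 scale.

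**Figure D2:**
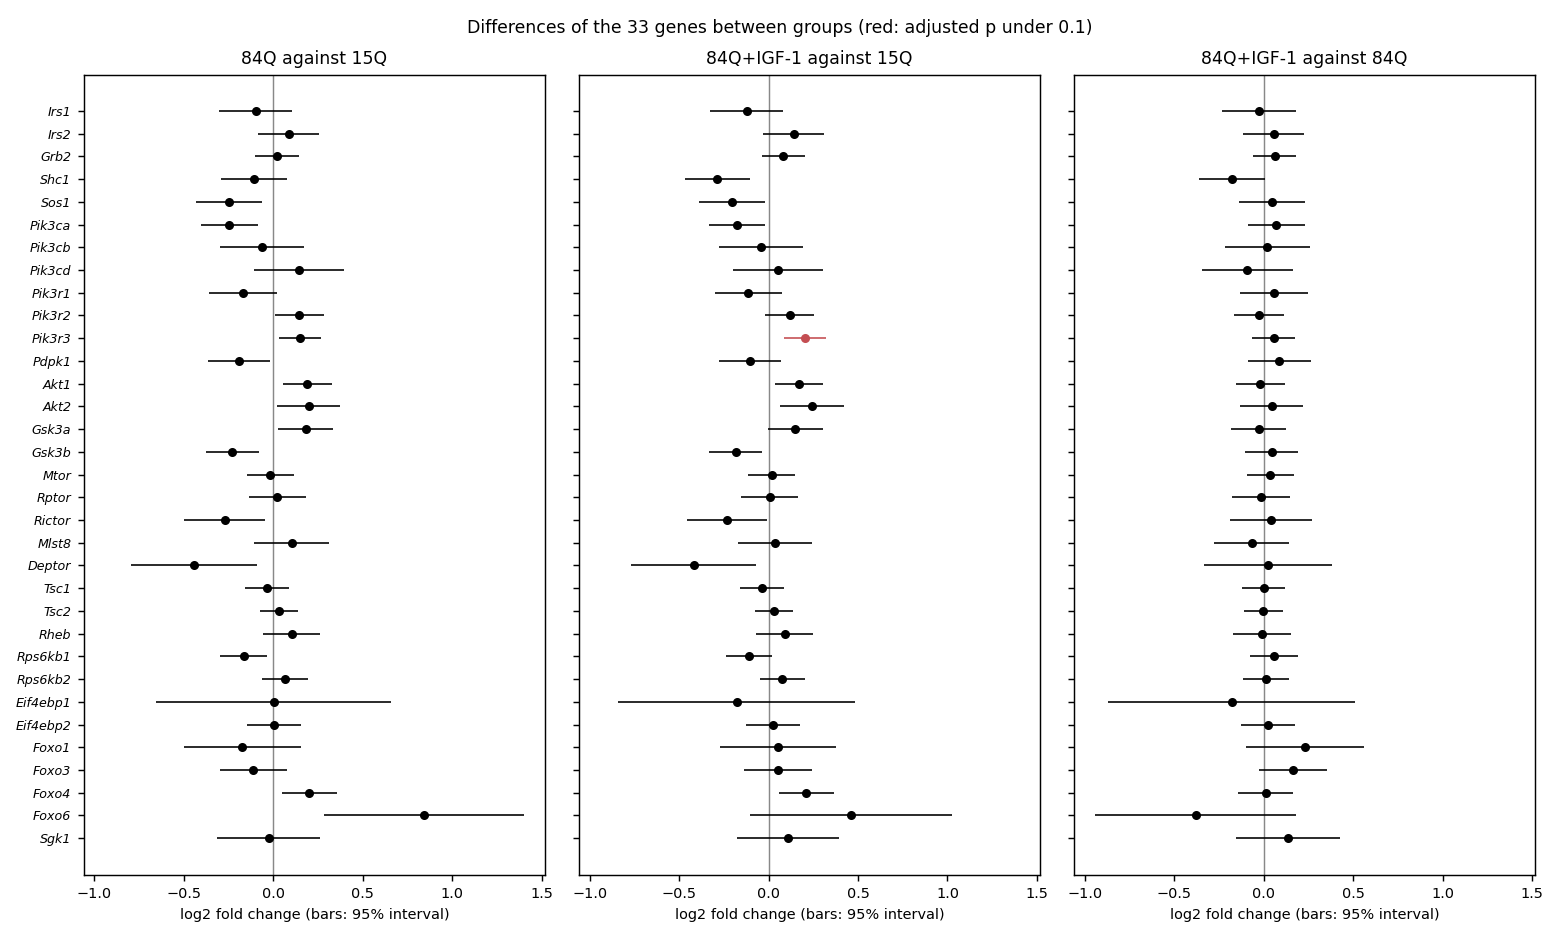
Log2 fold change of each of the 33 genes in 3 comparisons, with bars for the 95% interval and genes ordered from receptor docking to FOXO factors. Pik3r3 in 84Q+IGF-1 against 15Q, at 0.20, is the only point past an adjusted p of 0.1, and the median size without sign is 0.145, 0.112 and 0.045 from left to right.

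Since both 84Q groups carry the expanded repeat, their 6 libraries were also compared together with the 3 of 15Q. This comparison uses the same libraries as the others and is no independent support. Here 8 of the 33 genes passed, or 24.2%, against 10.0% of all genes tested, with 4 higher (4.04% of all genes) and 4 lower (6.01%). Those higher were Pik3r3, Akt1, Akt2 and Foxo4, and those lower were Pik3ca, Gsk3b, Sos1 and Deptor. At an unadjusted p under 0.05 the count was 14 of 33, against 22.7% of all genes. The 6 libraries did not overlap with the 3 of 15Q for 5 of the 33, namely Pik3r3, Akt1, Foxo4, Gsk3b and Shc1, against 12.3% of all genes. With the study's further limit of a 1.5-fold change, none of the 33 was called in any comparison, against 2.14% of all genes in 84Q, 2.25% in 84Q+IGF-1, 0% between these groups and 3.47% here. The count of 8 depended on a few libraries: it was 0 without 15Q replicate 2 (2.52% of all genes), 0 without 15Q replicate 3 (1.87%), 5 without 15Q replicate 1 (9.48%), 3 without replicate 3 of 84Q (7.08%) and 3 without replicate 1 of 84Q+IGF-1 (7.24%). The share of all genes was thus lower in these fits too. It was also 0 without the 3 libraries of highest choroid plexus sum, where 1.42% of all genes passed, 0 with that sum as a covariate (4.63% of all genes), and 1, Pik3r3, with Xist as a covariate (4.48% of all genes). The summed markers of epidermis, gut, muscle and liver separated 15Q from the other 6 libraries, and their part in these differences was not tested.

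Pik3r3 (ENSMUSG00000028698, chr4:116221618-116303056, plus strand, GRCm38) encodes a regulatory subunit that holds the catalytic subunit of PI3K at phosphorylated docking proteins. Its CPM in 15Q were 113, 115 and 115, in 84Q 126, 119 and 135, and in 84Q+IGF-1 129.8, 136 and 129. All 6 libraries with the expanded repeat lay above all 3 of 15Q. The log2 fold change of the pooled comparison was 0.18 ± 0.048 (SE, adjusted p = 0.0546).

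Akt1 (ENSMUSG00000001729, chr12:112653821-112674884, minus strand) and Akt2 (ENSMUSG00000004056, chr7:27591552-27640826, plus strand) encode the serine and threonine kinases at the centre of the pathway. Akt1 had 131, 137 and 129.7 CPM in 15Q, 149, 150.2 and 155 CPM in 84Q, and 164, 144 and 139.7 CPM in 84Q+IGF-1. All 6 libraries with the expanded repeat lay above the 3 of 15Q, and the pooled log2 fold change was 0.18 ± 0.053 (SE, adjusted p = 0.0702). Akt2 had 145, 129 and 128 CPM in 15Q, 144, 147 and 169.7 CPM in 84Q, and 172, 158 and 146 CPM in 84Q+IGF-1. 15Q replicate 1 of Akt2 reached the lowest libraries of the 84Q group, and the log2 fold change was 0.22 ± 0.069 (SE, adjusted p = 0.0862).

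Foxo4 (ENSMUSG00000042903, chrX:101254528-101260873, plus strand) rose, 1 of the 4 FOXO factors of the set. It had 24.9, 25.5 and 26.0 CPM in 15Q, 28.5, 28.2 and 31.2 CPM in 84Q, and 29.7, 30.2 and 28.7 CPM in 84Q+IGF-1. No library with the expanded repeat overlapped with 15Q, and the log2 fold change was 0.21 ± 0.059 (SE, adjusted p = 0.0637).

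Pik3ca (ENSMUSG00000027665, chr3:32397671-32468486, plus strand), the alpha catalytic subunit of PI3K, was lower. It had 116, 118 and 123 CPM in 15Q, 105, 102 and 94.1 CPM in 84Q, and 94.6, 116 and 106 CPM in 84Q+IGF-1. The 84Q libraries lay below 15Q, and 84Q+IGF-1 replicate 2 lay within its range. The pooled difference was -0.21 ± 0.062 on the log2 scale (SE, adjusted p = 0.072).

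Gsk3b (ENSMUSG00000022812, chr16:38089001-38246084, plus strand), the beta form of the kinase that AKT inhibits, had 279.5, 280.3 and 281 CPM in 15Q. It had 249.9, 245 and 222 CPM in 84Q and 227, 264 and 249 CPM in 84Q+IGF-1. The libraries with the expanded repeat all lay below 15Q. The SD of 15Q was 0.750 CPM (n = 3), and 3 libraries give only a rough SD. The log2 fold change was -0.21 ± 0.057 (SE, adjusted p = 0.0579).

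Sos1 (ENSMUSG00000024241, chr17:80393751-80480453, minus strand), the exchange factor that GRB2 brings to RAS, had 80.9, 88.2 and 94.7 CPM in 15Q. It had 77.0, 72.4 and 72.6 CPM in 84Q and 65.8, 82.8 and 80.5 CPM in 84Q+IGF-1, so that the last group overlapped with 15Q. On the log2 scale the difference was -0.23 ± 0.070 (SE, adjusted p = 0.0801).

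Deptor (ENSMUSG00000022419, chr15:55112317-55259271, plus strand), the inhibitor of both mTOR complexes, showed the largest change of the 8. It had 25.0, 27.4 and 33.3 CPM in 15Q, 23.7, 20.3 and 19.0 CPM in 84Q, and 16.4, 26.7 and 21.1 CPM in 84Q+IGF-1. The 84Q libraries lay below 15Q, and 84Q+IGF-1 replicate 2 lay within its range. The log2 fold change was -0.43 ± 0.13 (SE, adjusted p = 0.0759).

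**Figure D3:**
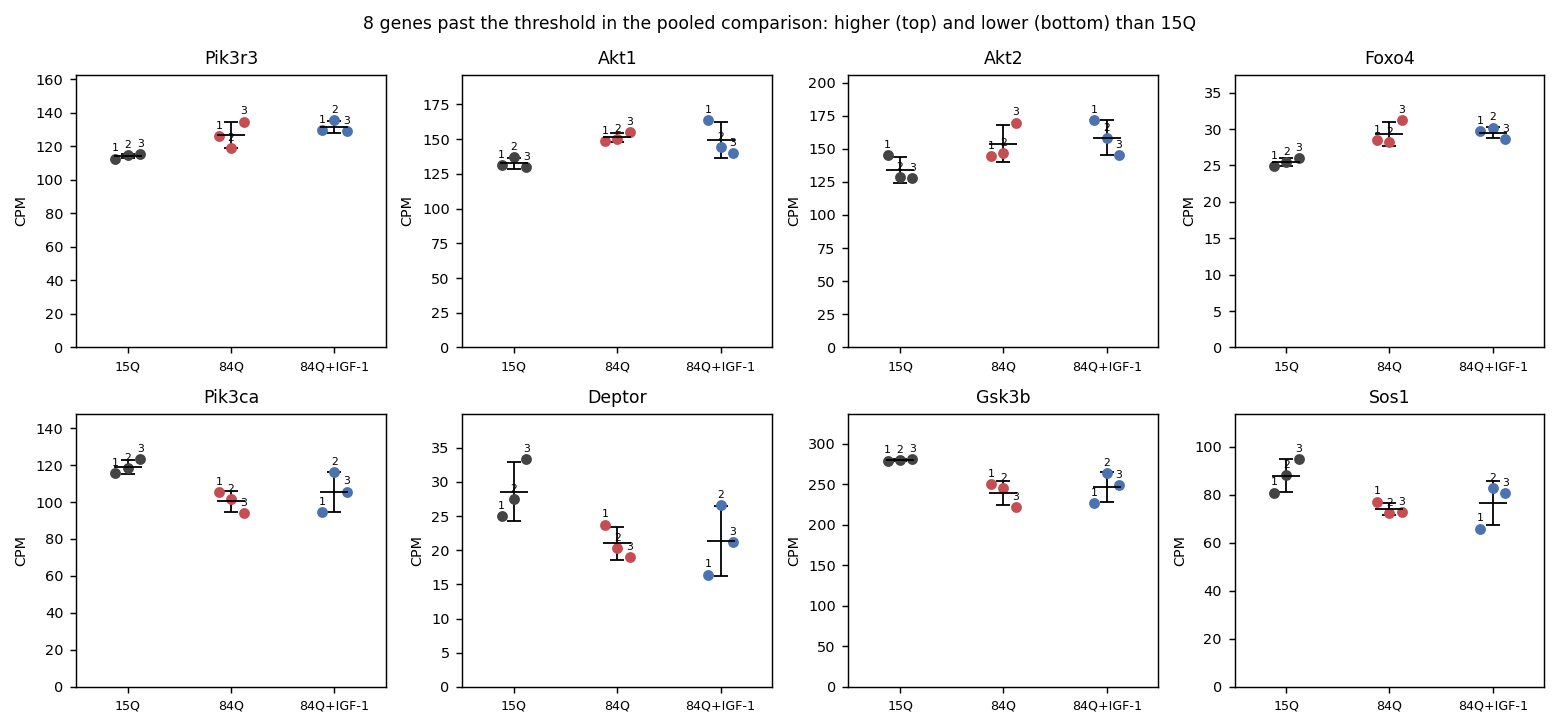
CPM of the 8 genes past an adjusted p of 0.1 in the pooled comparison, each point a library with its replicate number, and the bars the mean and SD of 3 libraries. Pik3r3, Akt1, Akt2 and Foxo4 are in the upper row and Pik3ca, Deptor, Gsk3b and Sos1 in the lower, and in Pik3r3, Akt1, Foxo4 and Gsk3b the 15Q points do not overlap with the others.

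The other genes of the docking and PI3K steps did not pass in any comparison by edgeR. Irs1 had 36.1, 38.8 and 40.9 CPM in 15Q, 34.8, 35.8 and 37.9 in 84Q and 34.4, 40.7 and 31.3 in 84Q+IGF-1, with a pooled log2 fold change of -0.11 ± 0.077 (SE). Irs2 had 131, 125 and 115 CPM in 15Q, 125, 125 and 143 in 84Q and 130.4, 149.8 and 128 in 84Q+IGF-1, with a pooled log2 fold change of 0.11 ± 0.067 (SE). Both genes overlapped between all groups. Pik3r1, the best known regulatory subunit, had 166, 165 and 186 CPM in 15Q, 171, 149 and 138 in 84Q and 146, 173 and 159.6 in 84Q+IGF-1. Its pooled log2 fold change of -0.14 ± 0.073 (SE, adjusted p = 0.279) had the opposite sign to those of the regulatory subunits Pik3r2, 0.13 ± 0.054 (SE, adjusted p = 0.17), and Pik3r3, but with offsets for the GC content and length of each gene it was 0.010. The difference between the subunits was not tested. The catalytic subunits Pik3cb and Pik3cd had -0.05 ± 0.088 and 0.10 ± 0.098 (SE), and the adaptor Grb2 0.05 ± 0.049. Pdpk1, the kinase that activates AKT, had 97.5 to 112 CPM in 84Q, below the 116 to 129 CPM of 15Q, and 100.9 to 125 CPM in 84Q+IGF-1. Its pooled log2 fold change was -0.15 ± 0.070 (SE, adjusted p = 0.232), and with the same offsets it was 0 (adjusted p = 0.997).

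Akt1 and Pik3r1 are also the genes of this set for which the study designed qPCR primers, whose readings were not analysed here. They are shown because they mark the exons read by that assay. The Akt1 pair lies in exons 12 and 13 at chr12:112656511-112656530 and chr12:112655181-112655201 and spans 78 bases of transcript. The Pik3r1 pair lies in exons 14 and 15 at chr13:101686973-101686993 and chr13:101686278-101686297 and spans 122 bases. Each pair matched 2 GENCODE transcripts of its gene.
Akt1 forward: tcgtgtggcaggatgtgtat
Akt1 reverse: acctggtgtcagtctcagagg
Pik3r1 forward: ggggaatgaaaataccgaaga
Pik3r1 reverse: gcaataggttctccgctttg

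The paralogs of GSK3 differed in sign. Gsk3a had 101, 96.8 and 89.3 CPM in 15Q, 99.1, 108 and 119 CPM in 84Q and 111, 105 and 103 CPM in 84Q+IGF-1. Its pooled log2 fold change was 0.17 ± 0.060 (SE, adjusted p = 0.128), while Gsk3b fell. With offsets for GC content and length Gsk3b was -0.069 (adjusted p = 0.378) and no longer passed, while Gsk3a was 0.145 (adjusted p = 0.0947). The difference between paralogs itself was not tested.

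The 250 bases before the start of Gsk3a and Gsk3b, from the RefSeq promoter table on GRCm38.p6, are shown because the RNA of these paralogs differed in sign. No link of these windows to the RNA was tested. Capitals mark the GC box GGGCGG, read on both strands (CCGCCC on the other), the element bound by SP1. The Gsk3a window (chr7:25237852-25238101, minus strand) holds 1 and has a GC content of 52.0%, and the Gsk3b window (chr16:38088751-38089000, plus strand) holds 0 and has a GC content of 62.0%.
Gsk3a: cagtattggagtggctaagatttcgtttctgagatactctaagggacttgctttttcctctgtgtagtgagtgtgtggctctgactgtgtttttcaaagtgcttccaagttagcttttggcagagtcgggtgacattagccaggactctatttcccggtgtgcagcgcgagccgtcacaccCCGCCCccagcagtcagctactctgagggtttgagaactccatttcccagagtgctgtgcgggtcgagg
Gsk3b: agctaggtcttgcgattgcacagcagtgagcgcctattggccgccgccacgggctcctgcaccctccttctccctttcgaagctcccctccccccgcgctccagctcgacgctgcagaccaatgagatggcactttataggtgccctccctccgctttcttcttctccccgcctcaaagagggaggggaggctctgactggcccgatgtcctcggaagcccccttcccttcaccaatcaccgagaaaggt
The table held 45 promoters of 28 of the 33 genes, and 24 of these (53.3%) had a GC box, against 32.7% of all 32851 promoters of the same length. All promoters include those of genes that did not pass the filter on low counts, and some genes have several promoters. The difference is therefore not read as a trait of the 33. The FOXO element GTAAACA, read on both strands, was in 1 of the 45 (2.2%), against 3.2% of all promoters. That promoter was 1 of 2 of Akt1, at chr12:112674885-112675134 on the minus strand. Its element is in capitals, in the orientation TGTTTAC.
Akt1: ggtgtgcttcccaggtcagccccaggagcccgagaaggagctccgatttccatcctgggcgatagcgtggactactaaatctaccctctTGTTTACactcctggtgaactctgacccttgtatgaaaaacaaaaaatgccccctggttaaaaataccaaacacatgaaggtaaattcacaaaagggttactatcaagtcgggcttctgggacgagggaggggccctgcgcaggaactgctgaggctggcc

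Of the mTOR genes besides Deptor, none passed in any comparison by edgeR with the filter on low counts, all 9 libraries and no offsets for GC content and length. In the pooled comparison Rictor passed by DESeq2 (adjusted p = 0.0901) and by edgeR without the filter (adjusted p = 0.0222). Mtor had 176.5, 169.8 and 163 CPM in 15Q, 163, 179 and 160.3 in 84Q and 165, 179 and 171 in 84Q+IGF-1. The groups overlapped in every comparison, and the interval of the pooled log2 fold change ran from -0.11 to 0.11. Rictor, the defining subunit of mTOR complex 2, had 113, 117 and 141 CPM in 15Q, 108, 106 and 93.1 in 84Q and 91.9, 118 and 106 in 84Q+IGF-1, with a pooled log2 fold change of -0.25 ± 0.085 (SE, adjusted p = 0.106). With offsets for GC content and length Rictor had -0.043 (adjusted p = 0.623). Rptor, its counterpart in complex 1, had 0.01 ± 0.061 (SE) without them. The brake subunits Tsc1 and Tsc2 had pooled log2 fold changes of -0.04 ± 0.046 and 0.03 ± 0.041 (SE), among the smallest standard errors of the 33. The small GTPase Rheb had 0.10 ± 0.061 (SE), and Mlst8, a subunit of both complexes, 0.07 ± 0.080. The S6 kinases Rps6kb1 and Rps6kb2 had -0.14 ± 0.051 and 0.07 ± 0.048 (SE), with adjusted p of 0.138 and 0.41. With the offsets Rps6kb1 changed sign, to 0.048 (adjusted p = 0.491). The translation repressors Eif4ebp1 and Eif4ebp2 had -0.09 ± 0.25 and 0.01 ± 0.058 (SE).

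The genes that were lower and those that were higher with the expanded repeat differed in their transcripts. The 4 lower genes had a GC content of 41.0 to 46.1% in their longest transcript and exon lengths of 8874 to 10594 bases. The 4 higher genes had 44.3 to 59.7% and 3485 to 7131 bases. Over the 33 genes, Spearman's rho of the pooled log2 fold change with GC content was 0.73 and with exon length -0.65, and over 19321 genes of the whole table rho was 0.25 and -0.13. These are correlations across genes that share the same 9 libraries, and genes are not independent replicates. Because of this, the comparison was repeated with offsets that remove, in each library, the part of each gene's deviation that follows GC content and length, an analysis added after the data were seen. With the offsets 7 of the 33 passed, or 6 higher and 1 lower, a share near the 20.4% of all genes. The count is therefore not read as a result about the 33. The offsets were estimated from the same counts and taken as known, and the share of all genes rose from 10.0% with them. The log2 fold change of Pik3r3 was then 0.29 (adjusted p = 0.00809), that of Akt1 0.16 (adjusted p = 0.0857), Akt2 0.28 (adjusted p = 0.0385), Foxo4 0.23 (adjusted p = 0.0418) and Deptor -0.28 (adjusted p = 0.0994). Pik3ca, Gsk3b and Sos1 no longer passed, with -0.04, -0.07 and -0.04. Rheb, which switches on mTOR complex 1, and Gsk3a passed with 0.23 (adjusted p = 0.0457) and 0.14 (adjusted p = 0.0947).

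**Figure D4:**
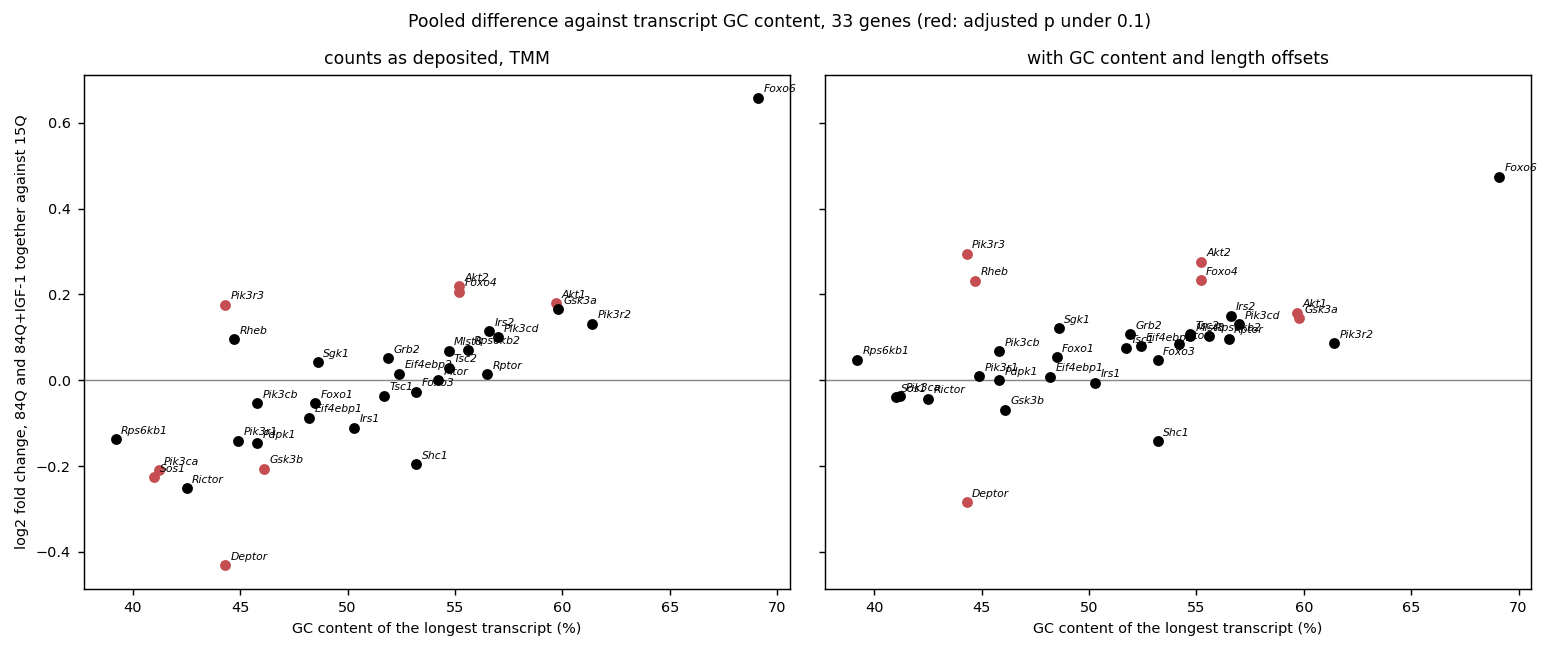
Pooled log2 fold change of the 33 genes against the GC content of their longest transcript, from counts as deposited at left and with offsets for GC content and length at right, genes with an adjusted p under 0.1 in red. At left the points climb with GC content, with rho of 0.73, and at right Pik3ca and Sos1, at -0.04, lie near 0 while Deptor, at -0.28, stays apart.

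For Foxo1, Foxo3 and Sgk1, 84Q+IGF-1 replicate 2 stood above the rest. Foxo1, a FOXO factor of insulin responses, had 46.4, 45.6 and 37.0 CPM in 15Q, 35.5, 41.4 and 37.3 in 84Q and 35.1, 56.8 and 41.8 in 84Q+IGF-1. Foxo3 had 326, 328 and 309 CPM in 15Q, 295, 294 and 303 in 84Q and 308, 389 and 302 in 84Q+IGF-1. Sgk1, a kinase related to AKT whose gene responds to glucocorticoids, had 57.1, 62.0 and 68.7 CPM in 15Q, 60.0, 65.4 and 59.2 in 84Q and 57.1, 86.1 and 59.4 in 84Q+IGF-1. For all 3 genes the highest of the 9 libraries was 84Q+IGF-1 replicate 2. The other FOXO genes were highest elsewhere, Foxo4 with 31.2 CPM in 84Q replicate 3 and Foxo6 with 1.89 CPM in 84Q replicate 2. Foxo1, Foxo3 and Sgk1 did not pass in any comparison by edgeR. In 84Q+IGF-1 against 84Q the log2 fold change of Foxo1 was 0.23 ± 0.15 (SE), that of Foxo3 0.16 ± 0.087 and that of Sgk1 0.14 ± 0.13. Without that library they were 0.013, 0.035 and -0.081. In 84Q+IGF-1 against 15Q the values of Foxo1, Foxo3 and Sgk1 were 0.06, 0.05 and 0.11 with that library and -0.154, -0.07 and -0.102 without it.

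The sum of 10 glucocorticoid-response genes was also highest in this library, at 554.5 CPM against 354 to 477 in the other 8. Of the 10 genes, 8 had their highest value there, Mt1 by little, with 108.5 CPM against 108 in 15Q replicate 3. Dusp1 had 39.5 CPM in this library and 90.6 in 84Q replicate 3. Mt2 had 0.602 CPM in this library and 1.15 in 15Q replicate 1. The share of all genes that were highest in this library was not counted. Zbtb16 had 24.9 CPM there and 6.22 to 17.2 elsewhere, Fkbp5 12.9 against 5.36 to 9.54, and Plin4 20.0 against 4.73 to 11.03. None of the 10 passed in any comparison of groups, and the part of these genes in the Foxo1, Foxo3 and Sgk1 values was not tested.

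Of the 6 RefSeq promoters of Sgk1, 1 holds the glucocorticoid receptor core GNACANNNTGTNC, which was in 0.4% of all promoters and in no other of the 45. It is shown because Sgk1 and those genes were highest in the same library. The window lies at chr10:21993640-21993889 on the plus strand of GRCm38.p6, and capitals mark the core and a GC box.
Sgk1: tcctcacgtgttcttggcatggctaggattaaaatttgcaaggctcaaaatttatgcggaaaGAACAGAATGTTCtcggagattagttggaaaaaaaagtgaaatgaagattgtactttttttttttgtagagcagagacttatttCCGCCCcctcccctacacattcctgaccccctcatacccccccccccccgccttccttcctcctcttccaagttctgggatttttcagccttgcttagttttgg

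**Figure D5:**
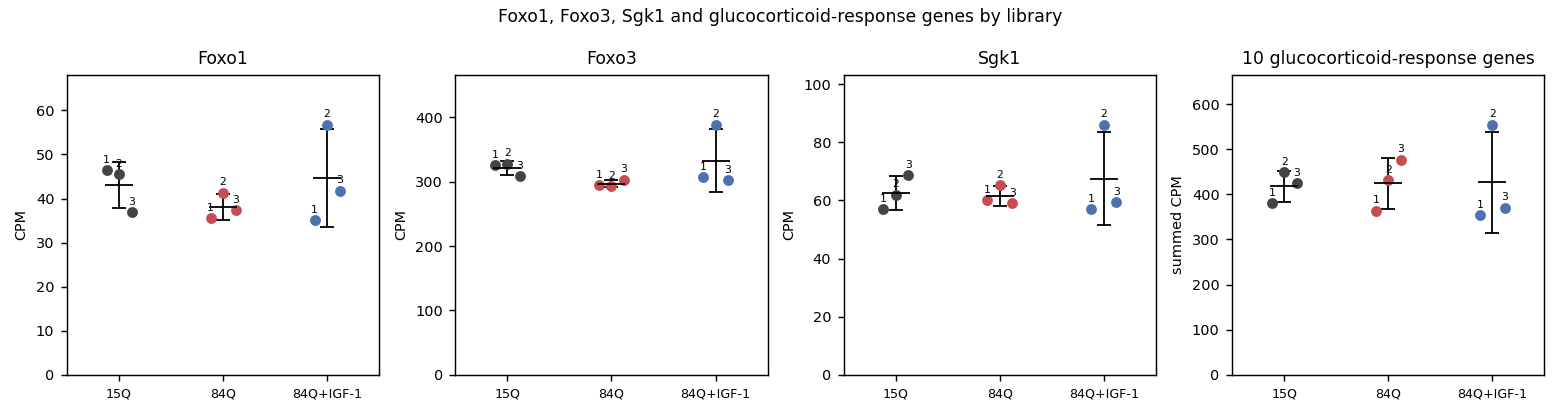
CPM of Foxo1, Foxo3 and Sgk1 and the summed CPM of 10 glucocorticoid-response genes in each library, points numbered by replicate, with the mean and SD of each group. In all 4 panels 84Q+IGF-1 replicate 2 is the highest of the 9 libraries, at 56.8, 389, 86.1 and 554.5 CPM.

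Foxo6, the FOXO gene of low level, showed the largest difference of the 33 from 15Q. It had 1.15, 0.770 and 0.770 CPM in 15Q, 1.41, 1.89 and 1.43 CPM in 84Q and 1.501, 1.02 and 1.13 CPM in 84Q+IGF-1. The 84Q libraries lay above 15Q, with a log2 fold change of 0.84 ± 0.26 (SE, adjusted p = 0.113). Its GC content of 69.1% was the highest of the 33, and with the offsets its pooled log2 fold change was 0.47 (adjusted p = 0.152) in place of 0.66.

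The genes around the set, taken from lists of the same pathway, held a few that passed. The background for the counts of the pooled comparison is 10.0% of all genes, 4.04% higher and 6.01% lower. Of 5 ligands and receptors tested, Igf1 itself fell, from 8.36, 10.9 and 10.6 CPM in 15Q to 7.42, 5.85 and 6.10 in 84Q and 6.48, 6.82 and 6.82 in 84Q+IGF-1. All 6 libraries with the expanded repeat lay below 15Q. The log2 fold change was -0.62 ± 0.13 (SE, adjusted p = 0.0405) in 84Q, -0.57 ± 0.13 (SE, adjusted p = 0.0531) in 84Q+IGF-1 and -0.60 ± 0.11 (SE, adjusted p = 0.00893) in both together. The injected protein adds no reads to this gene. The summed markers of epidermis, gut, muscle and liver separated the same libraries, at 47.8 to 77.2 CPM in 15Q and 7.99 to 10.1 in the other 6. Their part in the fall of Igf1 was not tested. The receptors did not pass: Igf1r had a pooled log2 fold change of -0.16 ± 0.076 (SE, adjusted p = 0.225) and Insr of -0.15 ± 0.070 (SE, adjusted p = 0.213).

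Of 14 other lipid kinase and phosphatase genes tested, Pik3c2a, a class II PI3K that is not part of the receptor relay, was lower in each comparison with 15Q. It had 39.6, 42.4 and 47.0 CPM in 15Q, 30.0, 32.5 and 29.2 in 84Q and 29.9, 36.8 and 34.3 in 84Q+IGF-1, with a pooled log2 fold change of -0.42 ± 0.080 (SE, adjusted p = 0.0123). Among the AKT regulators and substrates, Ppp2ca, the catalytic subunit of the phosphatase that removes phosphate from AKT, was higher in the pooled comparison, at 0.23 ± 0.060 (SE, adjusted p = 0.046).

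Of 41 other mTOR regulators and targets, 2 were higher and 2 lower in the pooled comparison, a share near the 10.0% of all genes. The median log2 fold change of the list was 0.077, beside -0.004 for all genes tested. Rraga, a GTPase that brings mTOR complex 1 to the lysosome when amino acids are present, had a log2 fold change of 0.25 ± 0.055 (SE, adjusted p = 0.0253), and Lamtor2, of its lysosomal anchor, 0.20 ± 0.066 (SE, adjusted p = 0.0996). Fnip1, a partner of folliculin, had -0.26 ± 0.071 (SE, adjusted p = 0.0567), and Mios, of the GATOR2 complex, -0.28 ± 0.084 (SE, adjusted p = 0.0738). None of 12 adaptors and none of 4 SGK-related genes passed in any comparison.

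Of 12 FOXO target genes tested, 2 were lower and 0 higher in the pooled comparison, against 6.01% and 4.04% of all genes, and at this size of list the count is not read as a result about it. Bcl2l11, which encodes the cell death protein BIM, had 9.85, 11.9 and 12.3 CPM in 15Q, 8.56, 7.91 and 9.69 in 84Q and 10.3, 9.00 and 8.09 in 84Q+IGF-1, with a log2 fold change of -0.36 ± 0.11 (SE, adjusted p = 0.0713). Cat, which encodes catalase, passed in 84Q+IGF-1 against 15Q, where 3.67% of all genes did, at -0.31 ± 0.057 (SE, adjusted p = 0.0158). It had 56.5, 55.8 and 56.2 CPM in 15Q, 55.2, 50.1 and 49.9 in 84Q and 44.2, 46.2 and 45.4 in 84Q+IGF-1. The 3 groups of Cat did not overlap, but 84Q+IGF-1 against 84Q gave -0.19 ± 0.058 (SE, adjusted p = 0.969). The list as a whole had a pooled median log2 fold change of 0.05, beside -0.004 for all genes tested.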

How the data were processed

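Strand-specific libraries of cerebellar RNA from 9 mice were read from both ends. Trimming was done by the authors with Trimmomatic 0.36, before they aligned the reads to the mouse genome (HISAT2 2.2.0; mm10, GRCm38.p6) and counted them on genes (featureCounts). The values used here are these deposited read counts, without normalization. The annotation and strand setting of the counting are not given in the sources used here. Groups and replicate numbers come from the sample labels, which do not say whether animals shared a litter or a day. All pairs of replicates differed by more than sampling noise (mean chi-square of 9.50 to 15.5 per gene).

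Of 37816 identifiers, 37681 were matched to symbols. The main test was the quasi-likelihood F test of edgeR 4.0.16 in R 4.3.3 on all 9 libraries, after filterByExpr and TMM scaling, with Benjamini-Hochberg adjustment over 19353 genes. A gene passed at an adjusted p under 0.1, and the study's further limit of a 1.5-fold change was also applied. Standard errors and 95% intervals come from the F statistic and the fitted degrees of freedom. CPM use TMM-scaled totals, and TPM use exon lengths of GENCODE vM21. A floor of 3 counts is 0.0513 to 0.171 CPM. Offsets for GC content and length were splines with 5 degrees of freedom. The test was tried on simulated data. Promoter letters are RefSeq, primers from the study's supplement.

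The 33 genes and the lists were chosen with earlier results of these data known. Per-library values are given for genes that passed in any comparison, the 3 with the smallest p in each, Akt1, Pik3r1, Irs1, Irs2, Mtor, Foxo1, Foxo3 and Sgk1, and for some others of the 33 (Gsk3a, Rictor, Pdpk1) named after their values were seen. From each list, at most 4 genes that passed, with Igf1, Igf1r and Insr, are named. Zbtb16, Fkbp5, Plin4, Mt1, Mt2 and Dusp1 were named after their values were seen. One list gene is not reported here. The alternatives were the DESeq2 1.42.0 Wald test, its size factors in edgeR, no filter, an adjusted p of 0.05, robust shrinkage, only the groups compared, a replicate block, Xist or choroid plexus covariates and each library left out. The 2 added after the data were seen were the offsets and leaving out the 3 libraries of highest choroid plexus sum. Protein levels, phosphorylation and qPCR were not analysed here.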

Additional observations from a re-analysis of the deposited data

Results flagged for a closer look

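Over the 6 libraries with the expanded repeat, the highest or lowest library of each of the 33 genes was compared with the rest by the size of its gap over the whole range. For 3 genes the gap was larger than Dixon's limit, which chance passes in about 5% of such groups. The share of all genes past this limit was not counted, so the count is not read as a result about the 33. Foxo1 had a gap of 0.689 of the range, with 56.8 CPM in 84Q+IGF-1 replicate 2 and 41.8 CPM in the next library. Foxo3 had 0.855, with 389 CPM there and 308 in the next. Sgk1 had 0.715, with 86.1 CPM there and 65.4 in the next. The same library was highest for all 3 and for 8 of 10 glucocorticoid-response genes, whose part in these values was not tested.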

How the results depend on the processing

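The count of genes past the threshold was the least stable value; the share of all genes in the same fit stands in brackets. In 84Q against 15Q it was 0 (4.80%), and 3 by DESeq2 (6.30%), 8 without a filter on low counts (6.50%), 2 with robust shrinkage (5.31%), 4 with only the groups compared (5.03%) and 1 with the offsets for GC content and length (7.35%); leaving out each library gave 0 to 6 (1.06 to 6.83%). In 84Q+IGF-1 against 15Q it was 1 (3.67%), and 3 by DESeq2 (5.24%), 5 without a filter (6.25%), 4 with the offsets (15.6%), and 0 at an adjusted p of 0.05 (1.79%), with the replicate block (1.68%), with Xist (2.39%), with the choroid plexus sum (1.44%) and without the 3 libraries of highest choroid plexus sum (0.944%); leaving out each library gave 0 to 1 (1.32 to 5.51%). In the pooled comparison it was 8 (10.0%), and 10 by DESeq2 (10.4%), which added Rictor and Gsk3a, 8 without a filter (6.95%), 7 with the offsets (20.4%), and 0 at an adjusted p of 0.05 (4.68%), with the replicate block (5.74%), with the choroid plexus sum (4.63%) and without those 3 libraries (1.42%), and 1 with Xist (4.48%); leaving out each library gave 0 to 9 (1.87 to 12.4%). In 84Q+IGF-1 against 84Q it was 0 under every alternative. With a 1.5-fold change as a further limit, 84Q against 15Q gave 0, and 1 without a filter; leaving out each library gave 0 to 1 in each comparison with 15Q. The median log2 fold change moved with the offsets to 0.053 in 84Q, 0.112 in 84Q+IGF-1 and 0.084 in the pooled comparison, and by leaving out each library in 84Q+IGF-1 against 15Q between -0.018 and 0.055. The cause was not tested. The replicate numbers did not pair the libraries, with correlations of same-numbered deviations of -0.368 to 0.11, so the block is only an alternative.

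Single genes near 0 changed sign, none of them past the threshold. With Xist, Sgk1 was 0.074 in 84Q and Foxo3 0.011 pooled. With the offsets, Mtor was 0.053 and Sgk1 0.030 in 84Q, Pik3r1 0.037 in 84Q+IGF-1, Akt1 0.057 in 84Q+IGF-1 against 84Q, and Foxo3, Foxo1 and Pik3r1 0.047, 0.053 and 0.010 pooled. Of the genes not followed, Rps6kb1, Pik3cb, Tsc1 and Eif4ebp1 also turned positive with the offsets, at 0.048, 0.068, 0.075 and 0.008 pooled. With the choroid plexus sum Foxo4 was -0.012 in 84Q+IGF-1 against 84Q, and without the 3 libraries of highest sum it was -0.015 there, Deptor -0.001, and Foxo1 -0.024 in 84Q+IGF-1 against 15Q. Leaving out each library, 84Q against 15Q ran from -0.063 to 0.016 for Mtor and -0.083 to 0.052 for Sgk1. In 84Q+IGF-1 against 15Q, Foxo1 ran from -0.154 to 0.201, Mtor from -0.009 to 0.052, Foxo3 from -0.07 to 0.12 and Sgk1 from -0.102 to 0.215, the lowest of each without 84Q+IGF-1 replicate 2. In 84Q+IGF-1 against 84Q, Foxo4 ran from -0.014 to 0.058, Deptor from -0.166 to 0.18, Gsk3b from -0.008 to 0.102, Pik3r1 from -0.008 to 0.148, Irs1 from -0.139 to 0.059, Akt2 from -0.017 to 0.122, Pik3ca from -0.006 to 0.143, Akt1 from -0.09 to 0.027, Sos1 from -0.019 to 0.14, Irs2 from -0.021 to 0.122 and Sgk1 from -0.081 to 0.24. Pooled, Foxo1 ran from -0.162 to 0.01 and Sgk1 from -0.053 to 0.122. Depth limits Foxo6 and Eif4ebp1 most.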

Other observations

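The libraries differed in how their counts followed GC content. Across the genes tested with a GC value, Spearman's rho of each library's deviation from the mean with GC content was -0.042, -0.18 and -0.32 in 15Q, -0.045, 0.25 and 0.18 in 84Q, and 0.19, 0.005 and -0.11 in 84Q+IGF-1. The 3 libraries of 15Q were all negative, and the 84Q+IGF-1 libraries spread on both sides of 0. The 4 lower genes of the pooled comparison had a mean log2 deviation of 0.094, 0.17 and 0.28 in 15Q, of -0.016, -0.113 and -0.198 in 84Q and of -0.275, 0.11 and -0.041 in 84Q+IGF-1. These genes were chosen by the difference between 15Q and the others, which their values therefore only describe. The mean deviation of 84Q+IGF-1 replicate 2 was within the range of 15Q for the 4 lower genes, though not the CPM of Gsk3b by itself, while it was above 15Q, at 0.083 against -0.116 to -0.142, for the 4 higher genes.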
